A study of Mus musculus with 4 samples.

Results

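The 10 imprinted growth genes Igf2, H19, Igf2r, Dlk1, Meg3, Peg3, Mest, Grb10, Plagl1 and Ndn were taken by name from the 34682 genes of the count table. Each of the 10 had a row, and 9 of them passed the filter on low counts and were tested, all but H19. RNA had been sequenced from developing mouse ovaries at E13.5, in mid-gestation, with 2 mutant libraries (Sall1 overexpression) and 2 wild-type ones, numbered 1 and 2 in each group. In the mutants, a bacterial artificial chromosome carrying the regulatory elements of Wt1 drove the Sall1 coding sequence. Wt1 is active in the somatic cells of the gonad, so these are the cells in which the transgene was designed to act. The construct was integrated into female embryonic stem cells with the PiggyBac system, and clones were selected with G418. Transgenic mice were made from these cells by aggregation with morulae. Whether the sequenced embryos came directly from aggregation or from later breeding is not stated in the sources used here. The number of embryos behind each library is not given in the sources used here. The stem cells were from a C57BL/6J or a hybrid background, the study's methods name CD1 for the wild-type gonads used in sequencing, its results speak of littermate controls, and the wild-type column names contain B6, so genotype and strain cannot be told apart here.

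Genomic imprinting restricts the expression of a gene to the copy inherited from one parent, by DNA methylation that is set in the parental germ line and kept in the somatic cells of the embryo. Many imprinted genes act on fetal growth, and as a rule those expressed from the paternal copy promote it while those expressed from the maternal copy restrain it. Igf2, Dlk1, Peg3, Mest, Plagl1 and Ndn are paternally expressed, and H19, Igf2r, Meg3 and Grb10 are maternally expressed, although Grb10 is read from the paternal copy in neurons. Germ cells erase their imprints around the stage sampled, whereas the somatic cells of the same ovary keep them. Counts per gene do not separate the parental copies, so every value below is the sum of both.

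Total counts ranged from 11036313 to 17869840 per library. The floor was set at 3 counts, or 0.168 to 0.272 CPM (counts scaled by library size with the TMM method of edgeR). Sall1 itself was at 113 and 96.0 CPM in the mutant libraries against 16.2 and 12.6 CPM in wild-type libraries, which fits the labels. Markers of pre-granulosa cells and of germ cells, such as Foxl2 and Ddx4, were present in all 4 libraries. The libraries of 1 group differed by more than sampling noise. Nothing in the labels says that they came from separate animals, so the p-values measure the spread between these libraries, which may be technical.

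For H19, the maternally expressed long non-coding RNA next to Igf2, all 4 libraries were listed at 0 counts. Mir675, a microRNA whose gene lies inside H19 (84 bases of overlap), was also listed at 0 in all 4 libraries. The table also holds a near-empty row for Rps2, a ribosomal protein gene that every cell uses, with between 1 and 18 counts per library. Because of such a row the value for H19 was taken only as a listing at 0, not as an absence of its RNA, and no fold change was computed for it. Among the other imprinted genes Snurf was likewise listed at 0 in all 4 libraries, and Snrpn, which shares its transcript, had at most 6 counts.

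The starts of 9 of the 10 genes were found in RefSeq (build GRCm38.p6), with 16 windows of 250 bases before a start, since several genes have more than 1 start. These windows were searched for TGCCGC on both strands, the hexamer that ZFP57 binds when it is methylated, ZFP57 being a zinc-finger protein that keeps imprints after fertilization. The hexamer was present in 4 of the 16 windows, from 3 genes, and in 8.68% of all 32851 promoter windows. The windows of 1 gene can overlap, and a match of letters is a description, not a bound site. One window is shown for each of the 3 genes, because they hold the hexamer and because Mest and Meg3 are among the genes that differed between replicate numbers. All 3 are read 5′ to 3′ on the plus strand, and the capitals mark the hexamer, which appears there as its reverse complement GCGGCA.
Mest, chr6:30737800-30738049: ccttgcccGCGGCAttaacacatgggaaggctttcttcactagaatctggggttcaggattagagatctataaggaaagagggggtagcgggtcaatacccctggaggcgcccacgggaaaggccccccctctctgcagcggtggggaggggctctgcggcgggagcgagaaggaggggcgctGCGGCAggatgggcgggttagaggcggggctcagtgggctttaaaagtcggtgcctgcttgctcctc
Plagl1, chr10:13090582-13090831: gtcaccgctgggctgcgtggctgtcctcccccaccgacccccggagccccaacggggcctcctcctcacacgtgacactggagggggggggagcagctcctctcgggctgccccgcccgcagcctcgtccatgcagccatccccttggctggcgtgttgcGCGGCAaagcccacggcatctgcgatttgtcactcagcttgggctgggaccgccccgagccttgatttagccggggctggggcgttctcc
Meg3, chr12:109540746-109540995: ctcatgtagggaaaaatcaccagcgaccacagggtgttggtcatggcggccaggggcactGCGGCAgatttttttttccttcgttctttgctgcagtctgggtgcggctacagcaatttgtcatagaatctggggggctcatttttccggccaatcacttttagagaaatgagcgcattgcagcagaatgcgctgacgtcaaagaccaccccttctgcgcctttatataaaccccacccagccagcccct
The Mest window holds the hexamer at 2 places and the other windows at 1 place each. The number of CpG dinucleotides was 14 in this Mest window, 19 in the Plagl1 window and 10 in the Meg3 window, against a median of 9 over the 16 windows and of 6 over all promoter windows. The highest number was 40, in the Grb10 window at chr11:12037421-12037670, and windows of Igf2 held between 1 and 22.

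Expression per transcript length (RPKM, CPM divided by the exon length in kilobases) was used to order the genes, with the merged exons of GENCODE M1 on NCBIM37, equal to mm9, as the length. That annotation may differ from the one used for the counting. Igf2, the fetal growth factor, was the highest at a mean of 339 RPKM over the 4 libraries. Mest, a membrane protein of the hydrolase fold, followed at 148 RPKM and Peg3, a zinc-finger protein, at 99.2 RPKM. Ndn (necdin, a growth suppressor) at 51.7 RPKM, Grb10 at 49.3 RPKM and Igf2r at 48.9 RPKM overlapped in their library values and could not be ordered. Dlk1 at 29.3 RPKM and Plagl1 at 27.6 RPKM overlapped in the same way. Meg3 was the lowest of the 9, at a mean of 15.15 RPKM. Its merged exons are longer than those of any other gene in the group, which lowers a value per length.

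**Figure D1:**
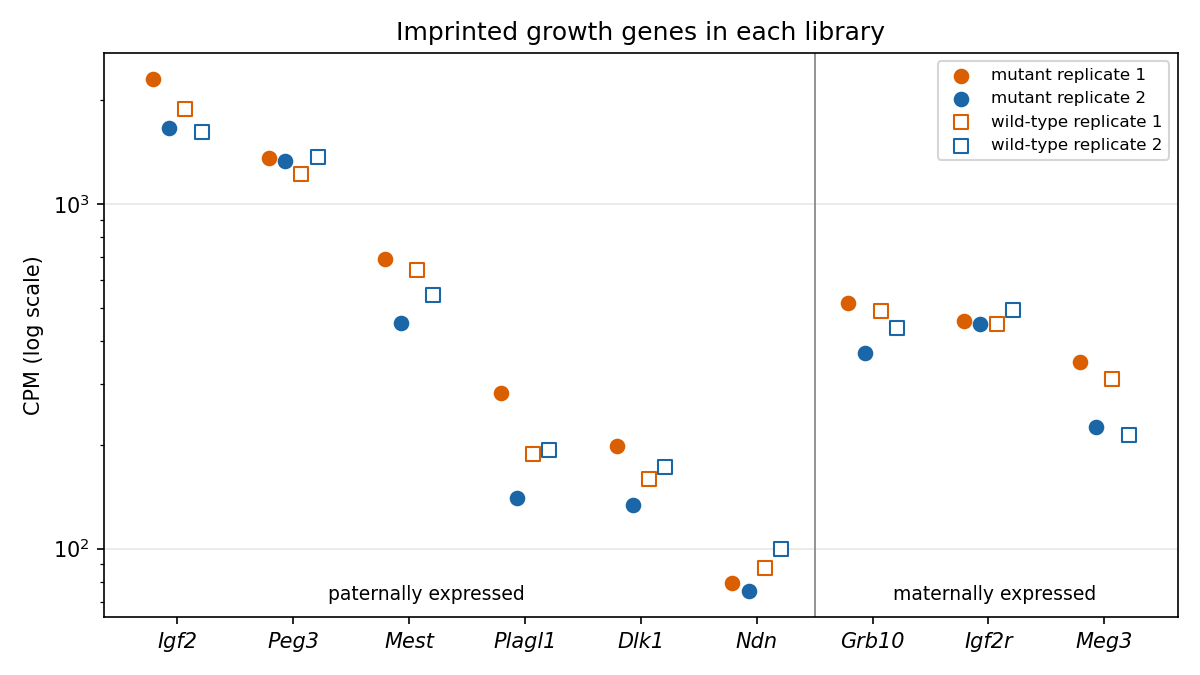
Expression of the imprinted growth genes in each library, in CPM on a log axis. Mutant libraries are filled circles, wild-type libraries are open squares, and colours mark the replicate numbers. Igf2 spans 1617 to 2306 CPM and Ndn 75.2 to 99.4 CPM, and in most genes the spread within a genotype is as wide as the distance between genotypes.

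Comparing mutant with wild-type ovaries addresses whether Sall1 expression in the somatic cells went with a change in these growth genes. By the quasi-likelihood test of edgeR, adjusted over 15442 genes, none of the 9 tested genes passed a threshold of 0.05 (lowest adjusted p = 0.806), and 1 had an unadjusted p under 0.05. Across all genes 0.0583% passed, so a count of 0 among 9 is what this background gives. In the mutants 4 of the 9 fold changes were negative and 5 positive, with a median log2 fold change of 0.00058 against -0.00088 over all genes tested. In bulk ovaries a smaller number of cells of a type and less RNA per cell cannot be told apart, which holds for every difference given here.

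Igf2, on chromosome 7 (149836673 to 149852721, minus strand, NCBIM37), had 2306 and 1656 CPM in mutant and 1878 and 1617 CPM in wild-type libraries. Its highest value was in mutant replicate 1, and the other mutant library lay between the wild-type ones. The means were 1981 ± 459 CPM (SD, n = 2) and 1748 ± 185 CPM (SD, n = 2), and the log2 fold change of 0.18 (standard error, SE, 0.16) was close to its own error. Dlk1, a transmembrane protein related to the Notch ligands (chromosome 12, 110691033 to 110701546), had 198.5 and 133.5 CPM in the mutant libraries against 159.2 and 172.1 CPM in wild-type libraries. Both wild-type values lay between the mutant values, and the log2 fold change was 0.00058 (SE 0.18). Plagl1, a zinc-finger transcription factor known to regulate other imprinted genes (chromosome 10, 12810497 to 12851500), had 282.9 and 140.6 CPM in mutant and 188.1 and 193.2 CPM in wild-type libraries. The mutant libraries again enclosed the wild-type ones, with means of 212 ± 101 CPM (SD, n = 2) and 191 ± 3.56 CPM (SD, n = 2). Peg3 (chromosome 7, 6656603 to 6683132) was among the steadiest of the genes, at 1359 and 1329 CPM in mutant and 1222 and 1370 CPM in wild-type libraries. Its log2 fold change was 0.05 (SE 0.094).

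Ndn, a single-exon gene on chromosome 7 from 69493163 to 69494814, was the only gene of the 9 whose libraries did not overlap between genotypes. It had 79.2 and 75.2 CPM in mutant and 88.0 and 99.4 CPM in wild-type libraries. The log2 fold change was -0.28 (SE 0.11, unadjusted p = 0.0338, adjusted p = 0.806 in edgeR's test), and it did not pass. Without wild-type replicate 2 it was -0.18 (unadjusted p = 0.280, edgeR). Over all genes 30.9% had libraries that did not overlap between genotypes, so 1 of 9 is below this background.

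The maternally expressed genes gave the same picture. Igf2r, the receptor that carries IGF2 to the lysosome (chromosome 17, 12875272 to 12962530), had 458 and 449 CPM in mutant and 448 and 492 CPM in wild-type libraries, with a log2 fold change of -0.05 (SE 0.090). Airn, a non-coding RNA, overlaps 28354 bases of Igf2r on the opposite strand, and its own row held between 124 and 168 counts. Grb10, an adaptor that inhibits signalling by the insulin and IGF receptors (chromosome 11, 11830511 to 11938686), had 516 and 368 CPM in mutant and 489 and 435 CPM in wild-type libraries. Meg3, a long non-coding RNA of the Dlk1 locus (chromosome 12, 110779211 to 110809936), had 347 and 225 CPM in mutant and 310 and 214 CPM in wild-type libraries. In both genes each genotype had a high library and a low library, and the log2 fold changes were -0.07 (SE 0.16) for Grb10 and 0.13 (SE 0.24) for Meg3. The paternally expressed Mest, on chromosome 6 from 30673547 to 30698457, had the same arrangement, with 690 and 450 CPM in mutant and 642 and 544 CPM in wild-type libraries and a log2 fold change of -0.06 (SE 0.20).

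**Figure D2:**
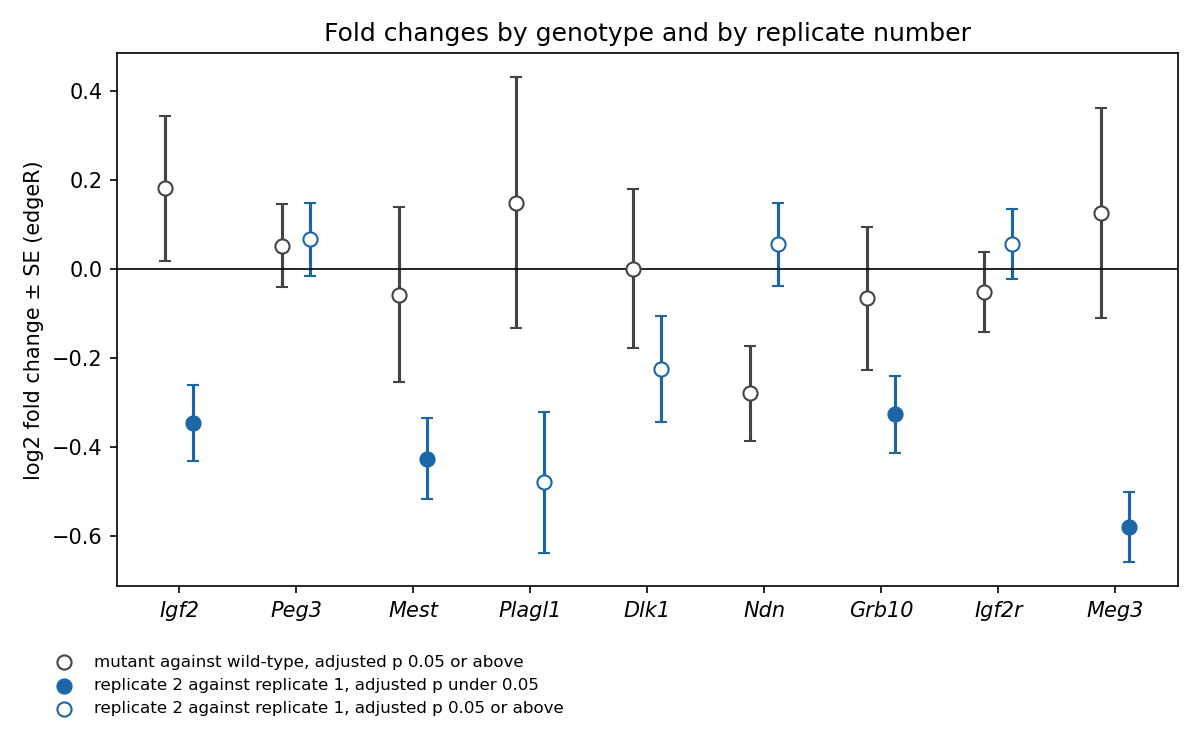
Log2 fold change of each tested gene with its standard error, for mutant against wild-type ovaries and for replicate 2 against replicate 1, from edgeR with 4 libraries. Mutant against wild-type values lie between -0.28 and 0.18, and replicate 2 against replicate 1 values reach -0.58 for Meg3.

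The libraries numbered 2 were then compared with those numbered 1, with genotype kept in the fit, which leaves 1 residual degree of freedom per gene. The labels do not say what a shared number marks, and the column names give neighbouring library numbers to the libraries that share one. Igf2, Mest, Meg3 and Grb10 were lower in the libraries numbered 2, and each passed an adjusted p of 0.05 in edgeR's test, with 0 genes of the group passing in the other direction. In this comparison 4.29% of all 15442 genes passed in either direction, and 2.73% passed as lower in the libraries numbered 2. The median log2 fold change of the 9 genes was -0.33 against -0.0077 over all genes tested. In the same 4 genes both libraries numbered 2 lay below both libraries numbered 1, which was the case for 23.5% of all genes tested.

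Of these 4 genes Meg3 had the largest difference, from 329 ± 25.9 CPM (SD, n = 2) in the libraries numbered 1 to 219 ± 8.27 CPM (SD, n = 2) in those numbered 2. The log2 difference was -0.58 (SE 0.078, adjusted p = 0.00042, edgeR). It was of similar size in both genotypes, at -0.62 in mutant and -0.54 in wild-type ovaries. Mest fell from 666 ± 33.9 to 497 ± 66.6 CPM (SD, n = 2 each), a log2 difference of -0.43 (SE 0.091, adjusted p = 0.0137, edgeR). Igf2 fell from 2092 ± 302 to 1637 ± 27.7 CPM (SD, n = 2 each), a log2 difference of -0.35 (SE 0.085, adjusted p = 0.0312, edgeR). Grb10 fell from 503 ± 18.7 to 402 ± 47.7 CPM (SD, n = 2 each), a log2 difference of -0.33 (SE 0.087, adjusted p = 0.0459, edgeR). Meg3 and Mest also passed with DESeq2, at adjusted p of 0.00011 and 0.0396, but Igf2 and Grb10 did not, at adjusted p of 0.0847 and 0.283, nor did they with the RLE normalization of edgeR, at 0.0538 and 0.0739. With the replicate number as the only factor, 0 of the 9 genes passed, and the cause of this change was not tested.

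For the 3 called genes other than Meg3 the difference was larger in mutant than in wild-type ovaries, at -0.62 and -0.24 for Mest, -0.48 and -0.22 for Igf2 and -0.49 and -0.17 for Grb10. Plagl1 and Dlk1 were lower in replicate 2 of the mutants alone. Their log2 differences between replicates were -1.01 and -0.57 in the mutants, and 0.04 and 0.11 in the wild type. Over both genotypes Plagl1 (log2 fold change -0.48, SE 0.16, adjusted p = 0.113, edgeR) and Dlk1 (-0.23, SE 0.12, adjusted p = 0.356, edgeR) did not pass. Dlk1 and Meg3 are neighbours of opposite parental expression, and in the wild type the values for replicate 2 against replicate 1 were 0.11 and -0.54. Peg3, Igf2r and Ndn had log2 fold changes of 0.07, 0.06 and 0.05 with standard errors of 0.082, 0.079 and 0.094. Whether the difference between replicates itself differed between genotypes was not tested, since each combination holds 1 library.

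**Figure D3:**
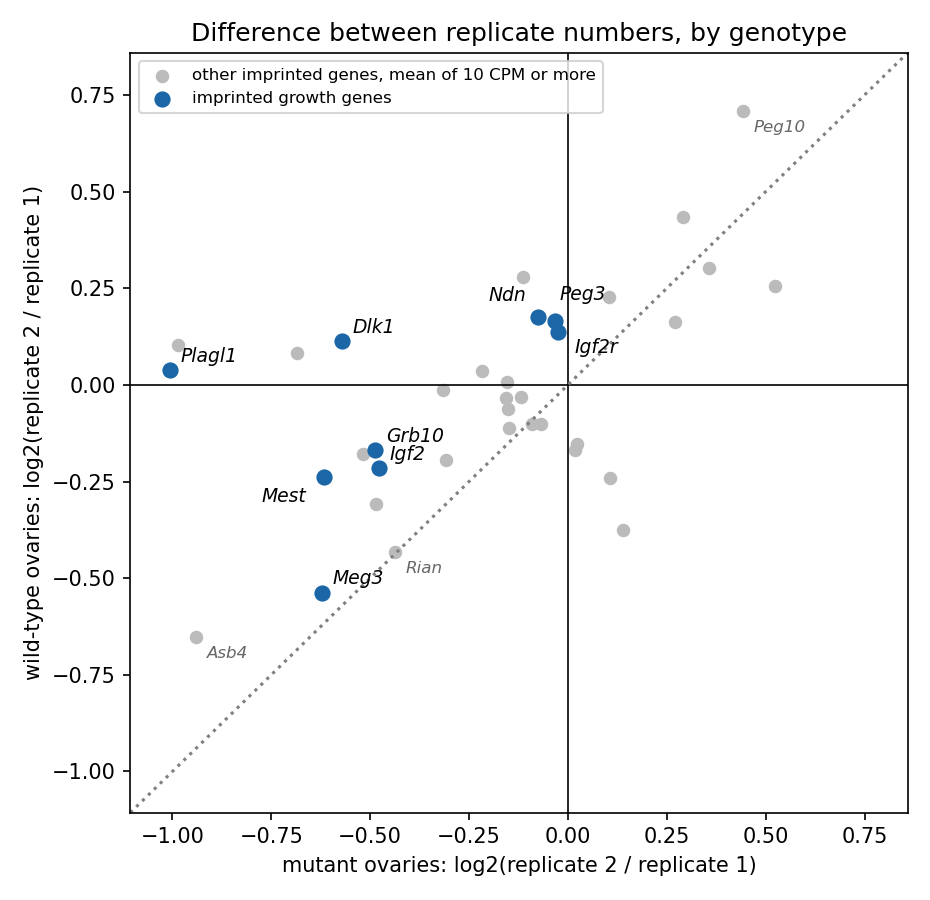
Log2 difference between replicate 2 and replicate 1 in the mutant (horizontal axis) and in the wild-type ovaries (vertical axis), with the dotted line marking equal values. The imprinted growth genes are in blue, with Meg3 close to the line at -0.62 and -0.54 and Plagl1 and Dlk1 near 0 on the wild-type axis, and other imprinted genes with a mean of at least 10 CPM are in grey.

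Other imprinted genes were examined to set the 9 genes beside the rest of their class. Of 22 further paternally expressed genes 19 were tested, and of 24 further maternally expressed genes 20 were tested. None of these passed between genotypes in edgeR's test, with median log2 fold changes of -0.0039 and -0.036. Between replicate numbers, Peg10, a retrotransposon-derived gene needed in the placenta, was higher in the libraries numbered 2 in both genotypes. It had 494 and 506 CPM in replicate 1 of mutant and wild type, and 672 and 826.5 CPM in replicate 2, with a log2 difference of 0.58 (SE 0.084, adjusted p = 0.00082, edgeR). Slc38a4, an amino acid transporter, fell by 0.35 on the log2 scale (adjusted p = 0.0467, edgeR). Slc38a4 did not pass with RLE or upper-quartile normalization (adjusted p = 0.0743 and 0.0603, edgeR), with no filter (0.0958), with DESeq2 (0.526) or with the replicate number as the only factor (0.256).

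Among the maternally expressed genes 2 fell and 0 rose between the replicate numbers. Asb4, an adaptor of ubiquitin ligases, fell by 0.80 on the log2 scale (SE 0.11, adjusted p = 0.00036, edgeR), from 76.3 and 66.1 CPM in replicate 1 of mutant and wild type to 39.5 and 41.9 CPM in replicate 2. Rian, a long non-coding RNA downstream of Meg3 in the Dlk1 locus, fell by 0.44 (SE 0.078, adjusted p = 0.0042, edgeR). It had 288.9 and 289.9 CPM in replicate 1 and 213.1 and 214.8 CPM in replicate 2, so Rian and Meg3 were both lower in replicate 2 of each genotype. With the replicate number as the only factor Peg10, Asb4 and Rian did not pass either (adjusted p = 0.168, 0.0992 and 0.121, edgeR). The median replicate difference was -0.13 over the tested paternally expressed genes and -0.091 over the maternally expressed ones. The most abundant genes of the maternal list were Gnas, with 856 to 929 CPM and a replicate difference of -0.07, and Cdkn1c, an inhibitor of the cell cycle.

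Cdkn1c, Zim1 and Igfbp3 did not pass between genotypes in edgeR's test but passed with DESeq2, and Zim1 and Igfbp3 were chosen after their values were seen. Cdkn1c had 240 and 207 CPM in the mutant and 302 and 309 CPM in wild-type libraries, a log2 difference of -0.45 (SE 0.10, adjusted p = 0.347 in edgeR and 0.0285 in DESeq2). Zim1, a zinc-finger gene of the Peg3 cluster, had 209 and 193 CPM against 116 and 141 CPM, a log2 difference of 0.64 (SE 0.12, adjusted p = 0.228 in edgeR and 0.00158 in DESeq2). In both genes the genotypes did not overlap, which was the case for 30.9% of all genes tested. Peg3 itself differed by 0.05 in the same comparison.

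Ligands, receptors and binding proteins of the IGF pathway, through which Igf2, Igf2r and Grb10 act, were listed as 23 genes, of which 21 were tested. None passed in edgeR's test, either between genotypes (median log2 fold change 0.046) or between replicate numbers (median -0.045). Igfbp5 and Igfbp4, secreted binding proteins, were the most abundant, at 1327 to 1444 CPM and 332 to 411 CPM. Igf1, the ligand related to Igf2, had 127 and 113 CPM in mutant and 89.6 and 108 CPM in wild-type libraries, with a log2 fold change of 0.28 (adjusted p = 0.891, edgeR). Igf1r, the receptor that carries the signal of both ligands, had a log2 fold change of 0.02. Igfbp3, another binding protein, had 71.0 and 58.4 CPM in mutant and 99.8 and 95.9 CPM in wild-type libraries, a log2 difference of -0.60 (SE 0.12, adjusted p = 0.277 in edgeR and 0.0145 in DESeq2).

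Of 12 genes for the upkeep of imprints 11 were tested, and none passed in edgeR's test in either comparison. Trim28, the co-repressor that ZFP57 recruits, ranged from 761 to 833 CPM and Dnmt1, the maintenance DNA methyltransferase, from 449 to 478 CPM. The median log2 fold changes of the list were -0.0059 between genotypes and -0.042 between replicate numbers.

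Markers of other cell types moved with the replicate number. Summed over 8 skeletal muscle markers, expression was 95.1 and 278.6 CPM in replicate 1 of mutant and wild type and 56.2 and 52.6 CPM in replicate 2, and 7 of the 8 tested markers fell in the libraries numbered 2. The defining markers Myod1 and Myog fell by 2.95 and 2.45 on the log2 scale, with 2 to 34 counts of Myod1 per library, and Actc1, a sarcomeric actin, fell by 4.25 on the same scale. Red blood cell markers summed to 3224 and 3572 CPM in replicate 1 and to 881 and 1739 CPM in replicate 2, and 6 of 7 tested markers fell, among them Alas2, the first enzyme of haem synthesis in red cells, by 1.81. Both lists and the 4 called growth genes were lower in replicate 2 of each genotype. The highest muscle sum was in wild-type replicate 1, and Igf2, Mest, Meg3 and Grb10 were highest in mutant replicate 1. Whether these patterns are linked was not tested.

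Gonadal stroma markers summed to 1886 and 1232 CPM in mutant and to 1795 and 1896 CPM in wild-type libraries, so that mutant replicate 2 was the lowest. For Plagl1 and Dlk1 mutant replicate 2 was also the lowest, and mutant replicate 1 was the highest. Of the 8 stroma markers 2, Nr2f2 and Col1a1, fell in the libraries numbered 2. The summed pre-granulosa markers ranged from 721 to 777 CPM and the germ cell markers from 1623 to 1803 CPM, and endothelial markers from 447 to 515 CPM. Mesonephric markers were at 37.5 to 51.9 CPM. Sertoli markers summed to 61.9 and 63.0 CPM in mutant and to 40.1 and 47.4 CPM in wild-type libraries, with Amh, which Sertoli cells secrete, at 3 counts in each library. Of these 5 lists, the pre-granulosa list had 0 markers that rose and 1 that fell between replicate numbers, the germ cell list 1 and 1, the mesonephric list 1 and 0, and the endothelial and Sertoli lists 0 and 0. In the germ cell list Stra8 rose by 0.47 and Dppa5a fell by 0.48 on the log2 scale (adjusted p = 0.0244 and 0.00888, edgeR). Between genotypes 0 markers of the 8 lists passed in edgeR's test. The part of these cell types in the values of the imprinted growth genes was not tested.

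**Figure D4:**
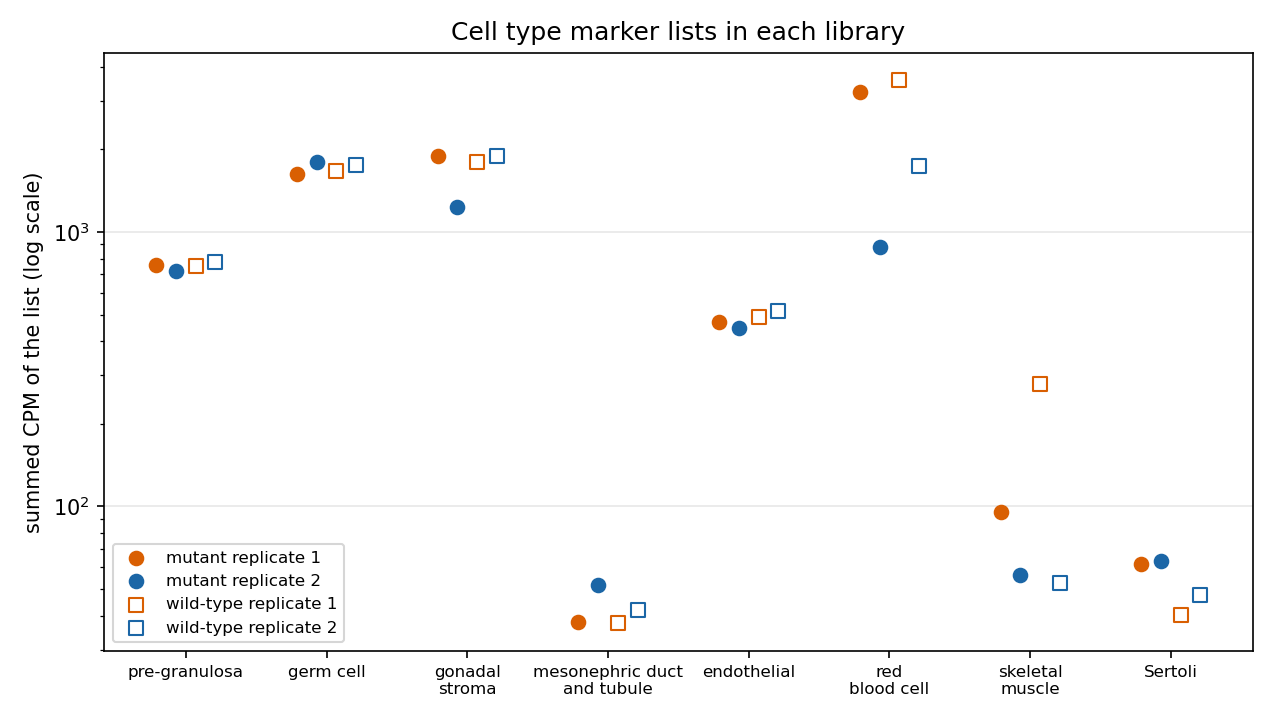
Summed CPM of the marker lists of 8 cell types in each library, on a log axis. Skeletal muscle and red blood cell markers lie lower in both libraries numbered 2, and gonadal stroma markers are lowest in mutant replicate 2 at 1232 CPM.

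Genes with a profile most like that of a growth gene were sought by the root mean square difference of log2 CPM, centred on each gene, over the 4 libraries, among 10122 genes with a mean of at least 10 CPM. For Igf2, Cc2d1b and Prkcd were among the 3 closest, with differences of 0.0135 and 0.0238. For Meg3 they were Tcaf2, Sall4 and Hmox1, with 0.0175, 0.02 and 0.0262, and for Dlk1 Ptn_copy2, Wipf1 and Foxn2, with 0.0171, 0.0282 and 0.0323. Meg3 ranked 5889th by likeness to Dlk1 (a difference of 0.242), and Dlk1 ranked 1846th by likeness to Meg3, so neither neighbour was among the genes closest to the other.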

How the data were processed

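RNA from E13.5 ovaries was measured in 4 libraries. The authors aligned the reads with STAR (version 2.6.1d and build mm9 in the submitters' processing notes), used summarizeOverlaps for counting and deposited the raw counts per gene. The annotation and strand setting are not given in the sources used here. The 10 genes and all lists were chosen with earlier results of these data known.

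Counts were analysed in R 4.3.3 with edgeR 4.0.16 (TMM, filterByExpr, quasi-likelihood F-test, Benjamini-Hochberg over 15442 genes, threshold 0.05). Genotype was the only factor, and the replicate number was tested with genotype in the fit. Fits were tested on simulated data. The share of false calls was below 0.05 in both comparisons with the spread left by genotype and replicate number, but above 0.05 for genotype in each of 5 draws with the spread of the genotype-only fit, which had been simulated first. From each further list, genes past the threshold (at most 6) and the 2 of highest CPM were named, and the 3 genes of most similar profile for Igf2, Dlk1 and Meg3, some of which are not reported here. With 2 against 2 libraries an exact permutation test cannot go below p = 0.333. Alternatives were DESeq2 1.42.0 (the authors' tool), RLE and upper-quartile normalization, other filters, the likelihood ratio test, other factors and each library left out. Floors cover counting error only. Promoter sequences are from RefSeq on GRCm38.p6 and gene positions from GENCODE M1 on NCBIM37.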

Additional observations from a re-analysis of the deposited data

How the results depend on the processing

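Between genotypes 0 of the 9 tested growth genes passed under every alternative run, and of 99 alternative fold changes 81 kept their side and direction while 18 changed sign without passing. Dlk1, at 0.00058, became -0.0022 with RLE, -0.012 with upper-quartile normalization, -0.0076 with no filter, -0.0015 with at least 10 counts in every library, -0.0048 with DESeq2 and -0.024 with the replicate block. With each library left out, Igf2 ranged from -0.079 to 0.398, Dlk1 from -0.313 to 0.259, Peg3 from -0.027 to 0.148, Mest from -0.400 to 0.217, Plagl1 from -0.441 to 0.568, Meg3 from -0.219 to 0.419, Grb10 from -0.331 to 0.156, Igf2r from -0.118 to 0.029 and Ndn from -0.365 to -0.179. Over all genes the 9 calls became 28 with no filter, 19 with at least 10 counts in every library, 105 with DESeq2, 134 with the likelihood ratio test and 385 with the replicate block. They ranged from 4 (without wild-type replicate 2) to 130 (without mutant replicate 1) with each library left out, and were 38 without mutant replicate 2. A lone library is assumed to vary like the other group. The cause of these changes was not tested.

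Libraries of the same number deviated together (correlation 0.481 across genes), and the names of their columns carry neighbouring library numbers, but the labels do not say what a shared number marks, and with 2 pairs it was not taken as a pairing. With the replicate block Cdkn1c, Zim1, Igfbp3 and Stc2 passed between genotypes, at adjusted p of 0.00696, 0.00125, 0.00196 and 0.0141 (edgeR).

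Between replicate numbers the 662 calls became 125 with DESeq2 and 4 with the number as the only factor. The 4 growth genes called became 2 with RLE and with DESeq2 and 0 with the number as the only factor. They were 3 with upper-quartile normalization and with no filter, where Grb10 did not pass (adjusted p = 0.0604 and 0.0756, edgeR). With RLE Igf2 and Grb10 did not pass (adjusted p = 0.0538 and 0.0739). Leaving out wild-type replicate 1, which has the highest muscle markers, was an alternative chosen after seeing the data. It set 1 library against 2 with the number as the only factor, a fit that gave 0 growth genes with all 4 libraries. Its log2 fold changes were -0.48 for Igf2, -0.46 for Mest, -0.65 for Meg3 and -0.35 for Grb10. Leaving out a library with genotype kept gives fold changes only, which for Igf2 ranged from -0.459 to -0.214, for Mest from -0.598 to -0.237, for Meg3 from -0.605 to -0.537 and for Grb10 from -0.469 to -0.167. The depth of 11036313 to 17869840 counts puts at least 873 counts behind each tested growth gene. The parts of depth and of the number of libraries in the errors were not tested.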

Other observations

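Rows of genes that overlap the imprinted growth genes were read beside them, because counts on opposite strands are uncertain while the strand setting is unknown. Copg2, which overlaps 904 bases of Mest on the other strand, had 2017 and 3333 counts in the mutant and 2992 and 3499 in the wild-type libraries, with a log2 fold change of 0.23 (adjusted p = 0.130, edgeR) for replicate 2 against replicate 1, where Mest fell by 0.43. Mir483, inside Igf2, had between 3 and 7 counts, and Mir335, inside Mest, was listed at 0 in all 4 libraries. Sgce, the neighbour of Peg10 that is read from the same region, had 39.8 and 36.0 CPM in replicate 1 of mutant and wild type and 48.9 and 48.8 CPM in replicate 2 (log2 fold change 0.37, adjusted p = 0.0649, edgeR). Stc2, a secreted inhibitor of the proteases that release IGF from its binding proteins, had 10.1 and 13.3 CPM in the mutant and 5.93 and 5.84 CPM in wild-type libraries (log2 fold change 0.99, adjusted p = 0.347, edgeR). Sgce and Stc2 were chosen after their values were seen.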
